A study of Urosaurus graciosus
Urosaurus ornatus and Urosaurus graciosus and Urosaurus ornatus with 18 samples.

Results

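The genes described here encode proteins of the mitochondrial ribosome. They were chosen by symbol, as every gene of the deposited count table whose symbol starts with MRPL or MRPS followed by a digit, which gave 76 of the 22773 genes. The animals were male lizards of the genus Urosaurus, and liver RNA was sequenced from 6 hybrids, 6 U. graciosus and 6 U. ornatus. Of each lineage 3 animals were held at 40 °C and 3 others at 36 °C for 48 h. The labels name no allele or agent for any group. Hybrids are labelled only as hybrids, and neither the generation of the cross nor the age of the animals is given in the labels. Animals are named by the letters in their labels: hybrids I, K and X were held at 40 °C and A, B and D at 36 °C, U. graciosus P, Q and T at 40 °C and J, R and S at 36 °C, and U. ornatus L, N and O at 40 °C and E, F and H at 36 °C. The design text names antioxidant genes as the question, and the title says that the hybrids carry introgressed mitochondrial DNA.

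Mitochondria keep their own ribosome. It translates the few messages of mitochondrial DNA, all of them in vertebrates for subunits of the respiratory chain and ATP synthase. Its ribosomal RNAs are made from mitochondrial DNA, whereas its proteins are encoded in the nucleus, made in the cytosol and imported, so the particle joins products of both genomes. The large subunit (MRPL genes) forms peptide bonds and the small subunit (MRPS genes) reads the message. Many of these proteins have a counterpart in the bacterial ribosome and the others are specific to mitochondria. Some symbols do not follow the subunit: in mammals the products of MRPS30 and MRPS18A lie in the large subunit, and that of MRPS36 belongs to the oxoglutarate dehydrogenase complex. Counted that way, the genes comprised 50 of the large subunit, 25 of the small subunit and MRPS36.

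Library totals ran from 15780346 to 35002548 counts. Levels are given as CPM, the count relative to the library total after scaling by TMM, a factor that balances the bulk of genes between libraries. All 76 genes passed the filter on low counts, as did 15856 of all genes. Their mean level ran from 1.23 CPM for MRPL41 to 95.7 CPM for MRPS6, with a median of 20.3 CPM. These levels are per gene and not per length, so they do not rank the proteins. In 13 of the 76 genes at least 1 library held under 100 counts, and MRPL41 was the 1 gene with a library under 10. Hepatocyte markers were abundant in every library, with summed levels of 34236 to 165552 CPM over the 11 markers in the table, although TTR, the carrier of thyroid hormone, was at 0 to 18.8 CPM. Hybrid X stood apart, with the lowest hepatocyte sum, the highest proliferation sum (349 CPM, against 9.05 to 52.2 CPM in the other libraries) and the highest stellate and fibroblast sum (2894 CPM, against 95.8 to 657 CPM). In these bulk samples, fewer cells of a type and less RNA per cell cannot be told apart.

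The comparison of 40 °C with 36 °C asks how the genes of this ribosome stood after heat. No gene of the 76 passed the test of the mean heat difference over the 3 lineages, and most differences were small. MRPS33, a mitochondria-specific protein of the small subunit, lay highest by p at 0.38 ± 0.10 on the log2 scale (SE, 9 animals against 9). MRPL28, a large subunit protein with a bacterial counterpart, was at 0.40 ± 0.14. MRPL50, a mitochondria-specific protein of the large subunit, was at -0.43 ± 0.15. Their adjusted p were 0.0902, 0.159 and 0.161 (edgeR quasi-likelihood test, two-sided, Benjamini-Hochberg over all genes tested, called under 0.05). The lineages were not alike in MRPL28, at 0.26 in hybrids, 0.11 in U. graciosus and 0.83 in U. ornatus. MRPL50 was at -0.66 in hybrids and -0.67 in U. graciosus. In U. ornatus the mean level of MRPL50 was 8.39 CPM at 40 °C, against 8.20 CPM at 36 °C. MRPS33 stood at 32.9, 27.7 and 31.7 CPM in heated hybrids (I, K, X), against 23.0, 23.5 and 20.8 CPM in hybrids A, B and D. Its levels in heated U. graciosus (P, Q, T) were 38.6, 29.4 and 27.2 CPM, against 27.3, 22.3 and 25.4 CPM in J, R and S. In U. ornatus it stood at 31.0, 28.8 and 39.6 CPM in L, N and O, against 30.2, 23.2 and 25.3 CPM in E, F and H. Of the 9 animals at 40 °C, 7 exceeded the 3 unheated animals of the same lineage for MRPS33, and 0 lay under all of them. MRPS33 was picked by its p in these same data, and such counts were not made over all genes.

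In edgeR 0 of the 76 genes were called, with 8 at an unadjusted p under 0.05, 7 of them higher at 40 °C. Over all genes tested the background was 0.996% called, and 17.9% at an unadjusted p under 0.05. DESeq2 called 1, MRPS33 (adjusted p = 0.0162), and limma voom called 2, MRPS33 and MRPS15, a small subunit protein with a bacterial counterpart. These are 1.32% and 2.63% of the 76 genes, below the 5.45% and 3.37% of all genes that DESeq2 and voom called. The 95% intervals of 75 of the 76 mean heat differences lay within a 2-fold change in either direction. The exception was MRPS6, whose interval reached down to -1.22. Of the 76 genes, 51 lay above 0, with a median of 0.09, beside a median of 0.03 over all genes tested. Among genes named whatever their values, MRPL12, part of the stalk that recruits translation factors, was at 0.37 ± 0.14 (adjusted p = 0.174) and MRPS12, at the decoding centre, at 0.13 ± 0.20 (0.671). MRPL44 and MRPL3, both mutated in human mitochondrial disease, were at 0.12 ± 0.17 (0.658) and -0.09 ± 0.11 (0.707), and MRPS34 at -0.19 ± 0.10 (0.351). MRPS16, MRPS22 and MRPL58, also named whatever their values, were at 0.34, 0.22 and 0.17. With library totals in place of TMM, MRPL3 was at 0.14 and MRPS34 at 0.004, and the median over all genes stood at 0.24, against 0.31 for the 76.

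Within lineages the genes were then summarised for each animal by the median deviation of log2 CPM from the gene's mean over the 6 groups. In hybrids this value was 0.20, 0.20 and 0.19 in I, K and X, against -0.09, 0.08 and -0.16 in A, B and D. The 3 heated hybrids all lay above the 3 hybrids at 36 °C. In U. graciosus it was 0.22, 0.19 and -0.15 in P, Q and T, against -0.04, -0.03 and -0.04 in J, R and S. Here P and Q lay above the 36 °C animals and T below all of them. In U. ornatus it was -0.14, -0.24 and -0.01 in L, N and O, against -0.02, -0.23 and -0.07 in E, F and H, and the groups overlapped. Taken apart, the large subunit genes gave 0.20, 0.19 and 0.20 in I, K and X, and the small subunit genes 0.20, 0.19 and 0.19. Ordered by mean, the groups ran from heated hybrids (0.20 ± 0.002, SD, n = 3) through heated U. graciosus (0.09 ± 0.21), U. graciosus at 36 °C (-0.04 ± 0.008), hybrids at 36 °C (-0.06 ± 0.13), U. ornatus at 36 °C (-0.11 ± 0.11) and heated U. ornatus (-0.13 ± 0.11). Neighbours in this order lay within their spreads. The order and the narrow spread of heated hybrids held for TMM and for RLE, another scaling factor (heated hybrids 0.20 ± 0.01). They did not hold for library totals. With those, heated hybrids I, K and X were at 0.01, 0.06 and 0.70, against -0.21, -0.12 and -0.20 in A, B and D, still without overlap. The group means were then 0.26 ± 0.38 for heated hybrids, 0.14 ± 0.25 for heated U. ornatus and 0.04 ± 0.36 for heated U. graciosus, and between -0.13 and -0.19 for the groups at 36 °C.

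**Figure D1:**
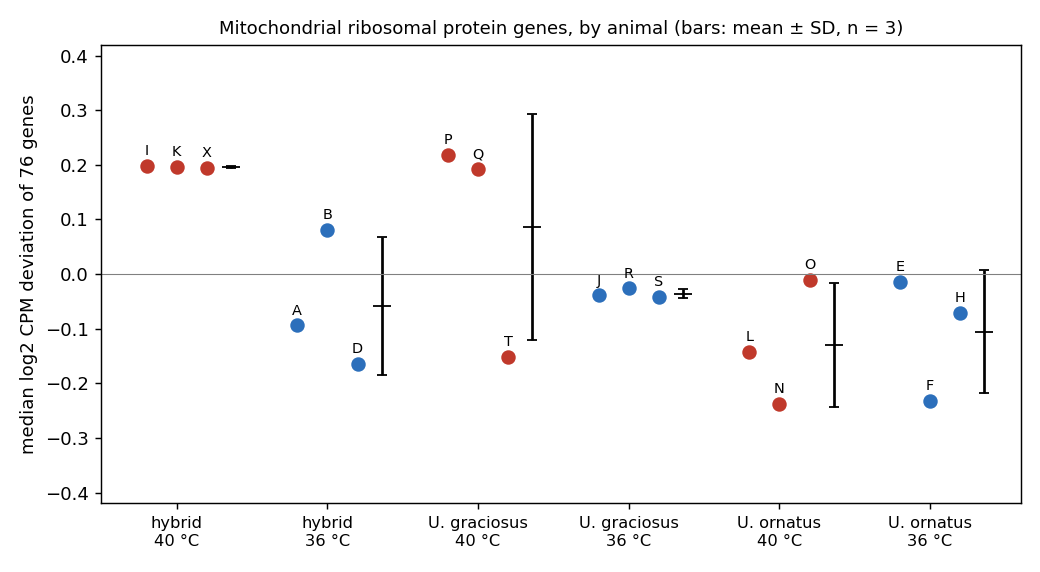
Each point is 1 animal, named by its letter, and the vertical axis gives the median deviation of log2 CPM over the 76 genes from each gene's mean over the 6 groups, with bars for the group mean and SD (n = 3). The 3 heated hybrids sit together at 0.19 to 0.20, above the hybrids at 36 °C, while heated U. graciosus split, with T at -0.15. The scaling is TMM, and with library totals the 3 heated hybrids lie at 0.01, 0.06 and 0.70.

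In hybrids 59 of the 76 genes lay above 0 at 40 °C against 36 °C, with a median of 0.21, beside 0.04 over all genes tested. Groups did not overlap for 12 genes higher at 40 °C (15.79%, against a background of 5.11% of all genes) and for 1 gene lower (1.32%, background 5.76%). No gene passed the test (0 called in edgeR, background 0%, and 0 in DESeq2 and voom, backgrounds 0.347% and 0%). An unadjusted p under 0.05 was reached by 6 of them (7.81% of all genes). MRPL55, a large subunit protein, had the smallest p. It stood at 15.96, 13.2 and 21.4 CPM in I, K and X, against 9.56, 11.1 and 10.1 CPM in A, B and D. Its difference was 0.72 ± 0.23 (adjusted p = 0.567), without overlap between the groups. MRPS33 was at 0.46 ± 0.18 (adjusted p = 0.587) and MRPL50 at -0.66 ± 0.26 (0.588). MRPL50 stood at 6.60, 7.76 and 8.74 CPM in I, K and X, against 12.2, 13.0 and 11.4 CPM in A, B and D, and was the gene with every heated hybrid below. Without hybrid X the median of the 76 genes was 0.16, beside -0.02 over all genes. Factors of mitochondrial translation lay on the same side, with 12 of 13 above 0 and a median of 0.30. So did 32 of 36 nuclear subunits of complex I (median 0.18) and 59 of 76 cytosolic ribosomal proteins (0.13), none with a member called. Without overlap and higher at 40 °C were 18 of the 76 cytosolic ribosomal proteins, 7 of the 36 complex I subunits and 2 of the 13 factors. Those without overlap and lower numbered 2, 0 and 0. The median deviation by animal was 0.02 to 0.23 for cytosolic ribosomal proteins in heated hybrids, against -0.04 to 0.001 at 36 °C. For complex I it was 0.13 to 0.44, against -0.06 to 0.31, with overlap. The side of complex I was not particular to hybrids, since 32 of 36 subunits also lay above 0 in U. graciosus (median 0.22). There 7 of 13 translation factors (0.01) and 36 of 76 cytosolic ribosomal proteins (-0.004) lay above 0. In U. ornatus it was 16 of 36 complex I subunits (-0.02), 3 of 13 factors (-0.20) and 48 of 76 cytosolic ribosomal proteins (0.09).

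In U. graciosus 55 of the 76 genes lay above 0, with a median of 0.12, beside 0.003 over all genes. Groups did not overlap for 6 genes higher at 40 °C (7.89%, background 7.25%) and 3 genes lower (3.95%, background 7.45%). No gene was called in edgeR (background 0%), DESeq2 (background 0.24%) or voom (background 0.0063%). In edgeR 1 was at an unadjusted p under 0.05 (6.1% of all genes). The smallest p belonged to MRPL50 (-0.67 ± 0.26, adjusted p = 0.735), MRPS33 (0.34 ± 0.18, 0.847) and MRPL21 (0.49 ± 0.27, 0.861), the last a large subunit protein with a bacterial counterpart. MRPL50 stood at 10.7, 12.8 and 11.2 CPM in P, Q and T, against 10.6, 26.3 and 18.2 CPM in J, R and S. The groups overlapped, since J was as low as the heated animals. Single animals moved the median over the 76 genes. It was 0.25 without T, and 0.06, 0.05 and 0.07 without P, Q or S. Cytosolic ribosomal proteins in T were also the lowest of all animals, at a median deviation of -0.51, against 0.21 and -0.02 in P and Q.

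In U. ornatus the genes lay on both sides of 0, with 35 of 76 above and a median of -0.07, beside 0.03 over all genes. With library totals in place of TMM the median was 0.30, beside 0.39 over all genes, below the bulk under both scalings. The sign turned on single animals: the median was 0.04 without E, beside 0.05 over all genes, and 0.03 without N, beside 0.01 over all genes. Hepatocyte sums of heated U. ornatus (39492 to 67449 CPM) all lay below those at 36 °C (77594 to 115982 CPM), and their part in the heat differences of this lineage was not tested. Groups did not overlap for 5 genes higher at 40 °C (6.58%, background 12.1%) and 6 lower (7.89%, background 11%). In edgeR 0 were called (background 0.782%), with 7 at an unadjusted p under 0.05 (16.7% of all genes). DESeq2 called 1 (1.32%, below the 5.34% of all genes) and voom 0 (background 1.65%). MRPL28 had the smallest p, at 0.83 ± 0.24 (adjusted p = 0.116, 0.0372 in DESeq2). It stood at 54.2, 34.0 and 40.2 CPM in L, N and O, against 21.5, 22.0 and 28.8 CPM in E, F and H, without overlap. MRPL39, a mitochondria-specific protein of the large subunit, was at -0.46 ± 0.16 (0.176) and MRPL51 at -0.50 ± 0.18 (0.177), both below in all 3 heated animals. MRPS16, a human disease gene with a bacterial counterpart, was at 8.50, 7.87 and 9.83 CPM in L, N and O, against 5.40, 5.99 and 5.74 CPM in E, F and H. In hybrids it was at 7.94, 8.43 and 9.23 CPM in I, K and X, against 6.75, 5.66 and 5.57 CPM in A, B and D. Its differences of 0.61 ± 0.23 and 0.51 ± 0.22 did not pass over all genes (adjusted p = 0.189 and 0.630). U. graciosus showed no such rise, with MRPS16 at -0.09 ± 0.23 and overlap between the groups. It stood there at 8.11, 6.69 and 4.53 CPM in P, Q and T, against 7.66, 6.15 and 6.76 CPM in J, R and S.

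**Figure D2:**
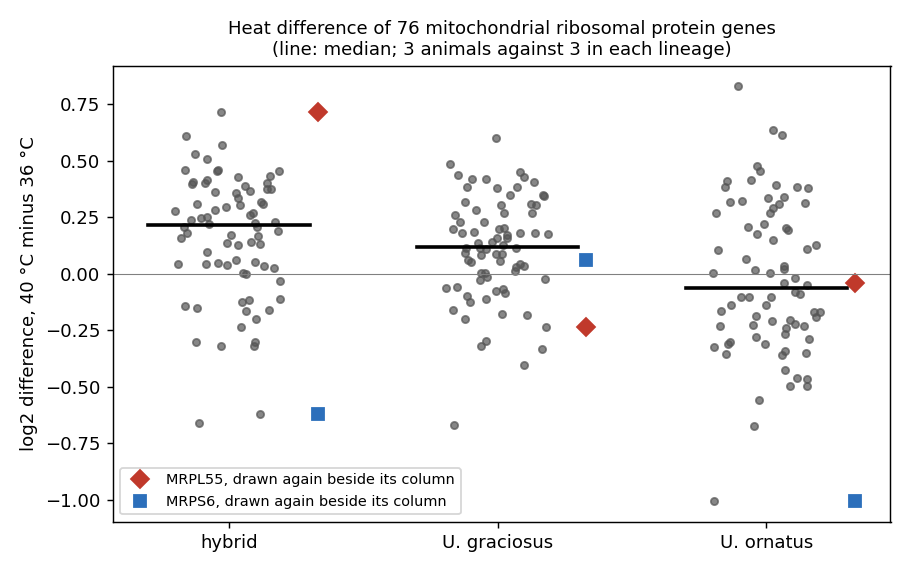
Points are the 76 genes in each lineage, the vertical axis is the fitted log2 difference of 40 °C minus 36 °C, and lines mark the medians of 0.21, 0.12 and -0.07. MRPL55 lies at 0.72 in hybrids, -0.24 in U. graciosus and -0.04 in U. ornatus, and MRPS6 is the lowest gene in U. ornatus at -1.01.

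The heat differences of the lineages were set against each other by an interaction test. Hybrids minus U. graciosus gave a median of 0.05 over the 76 genes, hybrids minus U. ornatus 0.18 and U. graciosus minus U. ornatus 0.15, beside 0.02, 0.03 and -0.02 over all genes. With library totals they were 0.22, 0.0047 and -0.15, beside 0.17, -0.12 and -0.32 over all genes. Without T the first was -0.03, beside 0.04 over all genes. In edgeR 0 of the 76 were called in each of these comparisons (background 0%, 0% and 0.00631%), and likewise 0 by DESeq2 and voom. An unadjusted p under 0.05 was reached by 1, 8 and 4 of them, against 3.44%, 9.64% and 7.46% of all genes. MRPL55 differed by 0.95 ± 0.32 between hybrids and U. graciosus (adjusted p = 0.99996, unadjusted p = 0.0092). Next by p were MRPS16 at 0.60 ± 0.32 and MRPL11 at 0.41 ± 0.26. Between hybrids and U. ornatus the smallest p belonged to MRPL39 (0.63 ± 0.23, adjusted p = 0.424), MRPL14 (0.88 ± 0.33, 0.428) and MRPL55 (0.76 ± 0.32, 0.484). Between U. graciosus and U. ornatus they belonged to MRPS18C, MRPL22 and MRPL58, at 0.76 ± 0.33, 0.71 ± 0.31 and 0.77 ± 0.34 (0.632 to 0.635). 

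Against U. ornatus, averaged over both temperatures, 25 of the 76 genes were higher in hybrids and 7 lower, 42.1% in all, against a background of 35.2% of all genes called (18.2% higher, 16.9% lower). With library totals in place of TMM the split was 12 higher and 6 lower, 23.7% against 30.1% of all genes, so the share of the 76 genes lay above the background with TMM and below it with library totals. The genes were of both subunits, with 16 higher and 6 lower of 50 in the large, and 8 higher and 1 lower of 25 in the small. Counted by origin, 11 were higher and 2 lower of 31 genes listed as mitochondria-specific. Of 44 others, most with a bacterial counterpart and MRPL55 among them, 13 were higher and 5 lower. The median over the 76 genes was 0.22, beside 0.02 over all genes, and 8 differed by at least 1 on the log2 scale. Summed endothelial markers of every hybrid (368 to 528 CPM, 6 markers) lay above those of every U. ornatus animal (173 to 345 CPM), and their part in these differences was not tested. All reads were aligned to Sceloporus undulatus, which is not a Urosaurus, so a difference in level and a difference in how well the reads of a lineage align cannot be told apart.

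MRPL45, a mitochondria-specific protein beside the exit tunnel that tethers the ribosome to the inner membrane, was the gene furthest past the threshold. It stood at 18.2, 22.2 and 24.9 CPM (lowest, median and highest of 6 animals) in hybrids, and at 17.3, 20.02 and 25.4 CPM in U. graciosus, against 44.7, 56.4 and 74.4 CPM in U. ornatus. Every U. ornatus animal lay above every other animal. Hybrids were lower than U. ornatus by a difference of -1.40 ± 0.13 (edgeR, adjusted p = 4.19e-06), and U. graciosus by -1.51 ± 0.14 (2.53e-06). MRPL20, a large subunit protein with a bacterial counterpart, stood at 3.25, 4.97 and 5.77 CPM in hybrids and 3.17, 4.73 and 6.55 CPM in U. graciosus, against 7.25, 10.6 and 14.8 CPM in U. ornatus. Again no animal of U. ornatus overlapped with the others. Its differences were -1.22 ± 0.22 for hybrids (adjusted p = 0.000652) and -1.17 ± 0.22 for U. graciosus (0.000998).

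A pair of stalk proteins went opposite ways. MRPL10, the base on which copies of MRPL12 sit in the bacterial and mitochondrial stalk, stood at 14.9, 16.6 and 22.4 CPM in hybrids and 12.5, 15.3 and 21.1 CPM in U. graciosus, against 22.8, 27.6 and 38.5 CPM in U. ornatus. MRPL12 stood at 45.99, 71.6 and 82.4 CPM in hybrids and 49.0, 67.6 and 83.8 CPM in U. graciosus, against 31.1, 42.5 and 67.1 CPM in U. ornatus. MRPL10 was lower in hybrids by -0.75 ± 0.16 (adjusted p = 0.00252), without overlap. MRPL12 was higher in hybrids by 0.59 ± 0.17 (0.0125), with U. ornatus E and O, at 47.6 and 67.1 CPM, inside the range of the hybrids. Against U. ornatus, U. graciosus differed by -0.90 ± 0.16 for MRPL10 (0.000811) and 0.61 ± 0.17 for MRPL12 (0.0115).

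Higher in hybrids than in U. ornatus were MRPS17 and MRPS5, small subunit proteins with bacterial counterparts. MRPS17 stood at 5.31, 7.28 and 9.22 CPM in hybrids and 3.97, 7.97 and 11.4 CPM in U. graciosus, against 1.57, 2.31 and 3.33 CPM in U. ornatus. MRPS5 stood at 48.5, 62.2 and 66.3 CPM in hybrids and 44.5, 57.1 and 65.8 CPM in U. graciosus, against 24.1, 30.7 and 35.4 CPM in U. ornatus. For both genes all U. ornatus animals lay below all others. The differences of hybrids were 1.55 ± 0.28 for MRPS17 (adjusted p = 0.000676) and 1.005 ± 0.15 for MRPS5 (0.00014), and those of U. graciosus 1.76 ± 0.28 (0.000325) and 0.87 ± 0.15 (0.00047). Among the other genes of this direction were MRPL2 (1.14 ± 0.23, adjusted p = 0.00170), which lies near the catalytic centre, MRPL16 (1.07 ± 0.20, 0.0010), MRPL24 (1.17 ± 0.28, 0.00461) and MRPL30 (0.85 ± 0.15, 0.000614), all large subunit proteins with bacterial counterparts.

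Of the mitochondria-specific proteins, MRPS22, a human disease gene, stood at 25.1, 31.4 and 38.1 CPM in hybrids and 33.3, 34.7 and 47.5 CPM in U. graciosus, against 12.7, 15.7 and 26.3 CPM in U. ornatus. It was higher in hybrids by 0.80 ± 0.18 (adjusted p = 0.00283). U. ornatus E, at 26.3 CPM, lay within the range of the hybrids but below every U. graciosus animal. MRPL58, a release factor relative that frees stalled ribosomes and is also a fixed part of the large subunit, stood at 13.2, 20.4 and 22.9 CPM in hybrids and 13.6, 19.4 and 26.6 CPM in U. graciosus, against 8.01, 12.1 and 16.4 CPM in U. ornatus. It was higher in hybrids by 0.65 ± 0.17 (0.00839). MRPL37, MRPL46, MRPS26, MRPS35 and MRPS30 were higher in hybrids by between 0.58 and 0.91, and MRPL51, MRPS27 and MRPS34 by between 0.41 and 0.55. MRPL38, which belongs to the central protuberance of the large subunit, was lower by -0.78 ± 0.15 (0.00133), at 16.3, 19.8 and 26.7 CPM in hybrids, against 28.0, 34.6 and 41.97 CPM in U. ornatus. These groups did not overlap. MRPL27, MRPL14 and MRPL11, large subunit proteins with bacterial counterparts, were higher by between 0.43 and 0.57. They lost their calls without 1 or more single animals, as did MRPS27.

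**Figure D3:**
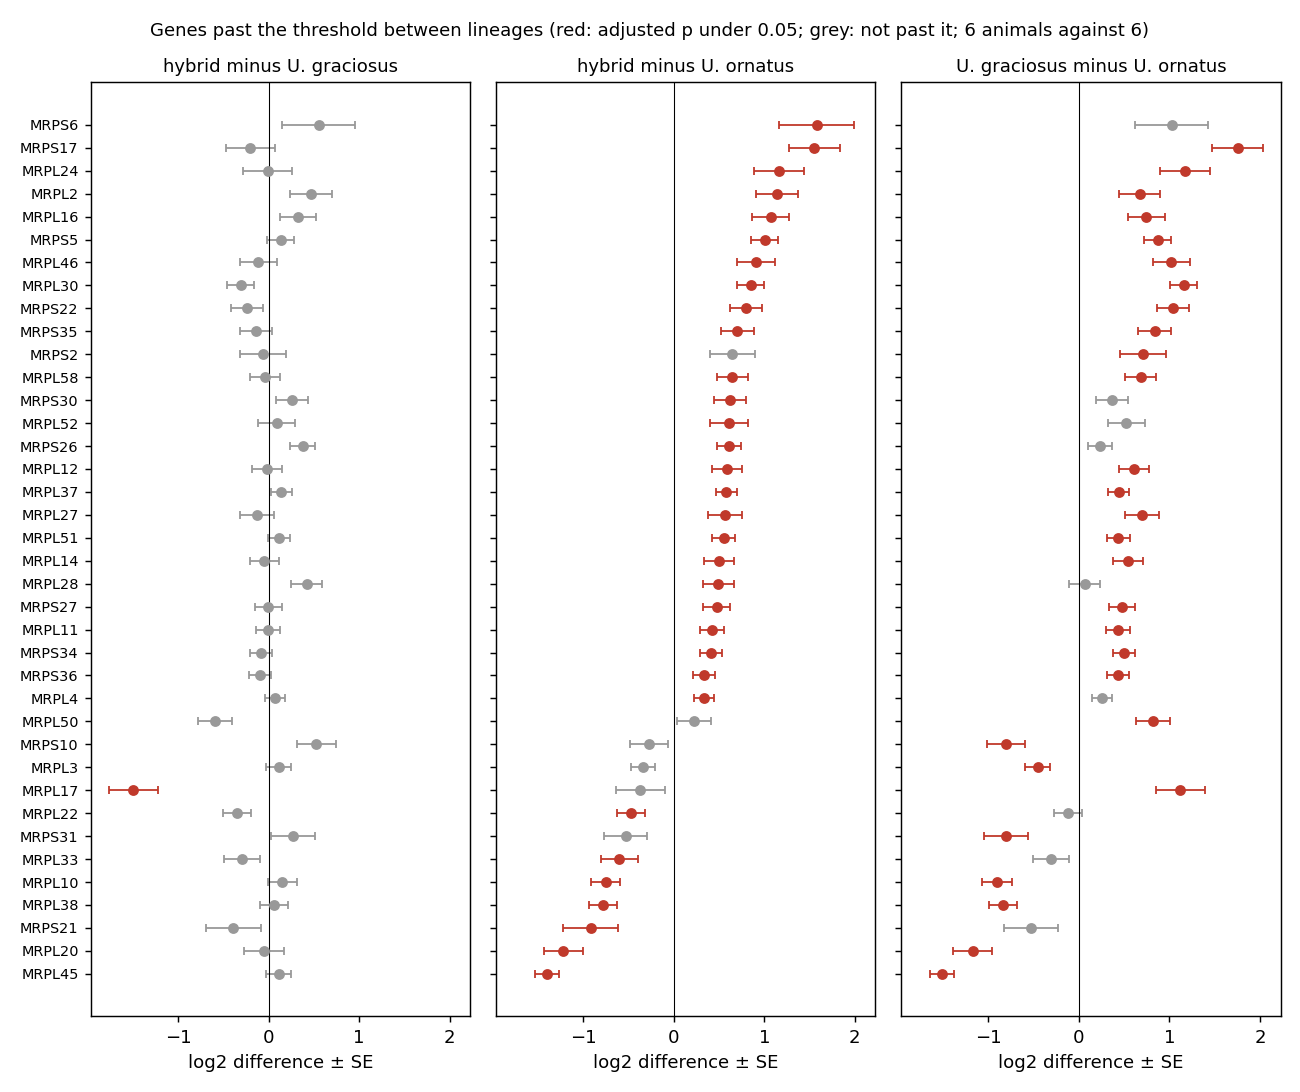
The 38 genes called in at least 1 of the 3 lineage comparisons are shown with their log2 difference and SE (6 animals against 6), in red where the adjusted p was under 0.05. MRPL17 is the single red gene of hybrids minus U. graciosus, and MRPL45, at -1.40 and -1.51, has the lowest value against U. ornatus in both other panels.

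Between the parents, 22 of the 76 genes were higher in U. graciosus than in U. ornatus and 7 lower, 38.2% in all, against a background of 32.2% (16% higher, 16.1% lower). With library totals the split was 8 higher and 9 lower, 22.4% against 28.0% of all genes and so below the background, and the median over the 76 genes was -0.10, beside -0.17 over all genes, against 0.06 with TMM. Large subunit genes gave 14 higher and 5 lower, and small subunit genes 7 higher and 2 lower. The comparison shares the U. ornatus animals with that of the hybrids, so the values stand side by side without a test of their likeness. MRPL30 (1.16 ± 0.15, adjusted p = 6.70e-05), MRPS22 (1.05 ± 0.18, 0.000502) and MRPL46 (1.02 ± 0.21, 0.00178), of the central protuberance, were higher in U. graciosus without overlap. MRPS10, a small subunit protein with a bacterial counterpart, was lower by -0.80 ± 0.21 (0.0097), and MRPL3 by -0.45 ± 0.14 (0.0206). Both overlapped between species, and MRPL3 lost its call without O (0.0531).

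Hybrids and U. graciosus differed in 1 of the 76 genes, against a background of 1.82% of all genes called. The gene was MRPL17, a large subunit protein whose bacterial counterpart lies by the exit tunnel. MRPL17 stood at 7.98, 13.3 and 7.27 CPM in heated hybrids (I, K, X) and 10.9, 15.5 and 9.22 CPM in A, B and D. In U. graciosus it stood at 37.7, 40.0 and 17.6 CPM in P, Q and T and 28.6, 36.7 and 19.2 CPM in J, R and S. Every hybrid lay below every U. graciosus animal, by a difference of -1.49 ± 0.28 (edgeR, adjusted p = 0.0110). U. ornatus stood at 10.1, 19.5 and 13.1 CPM in L, N and O and 10.7, 9.58 and 19.4 CPM in E, F and H, overlapping with the hybrids. MRPL17 was higher in U. graciosus than in U. ornatus by 1.12 ± 0.27 (0.00578). It passed against U. graciosus in all 18 fits that left out 1 animal (highest adjusted p 0.0384), but not at either temperature alone. The 95% intervals of 72 of the 76 differences between hybrids and U. graciosus lay within a 2-fold change. The median was 0.07, beside 0.03 over all genes.

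**Figure D4:**
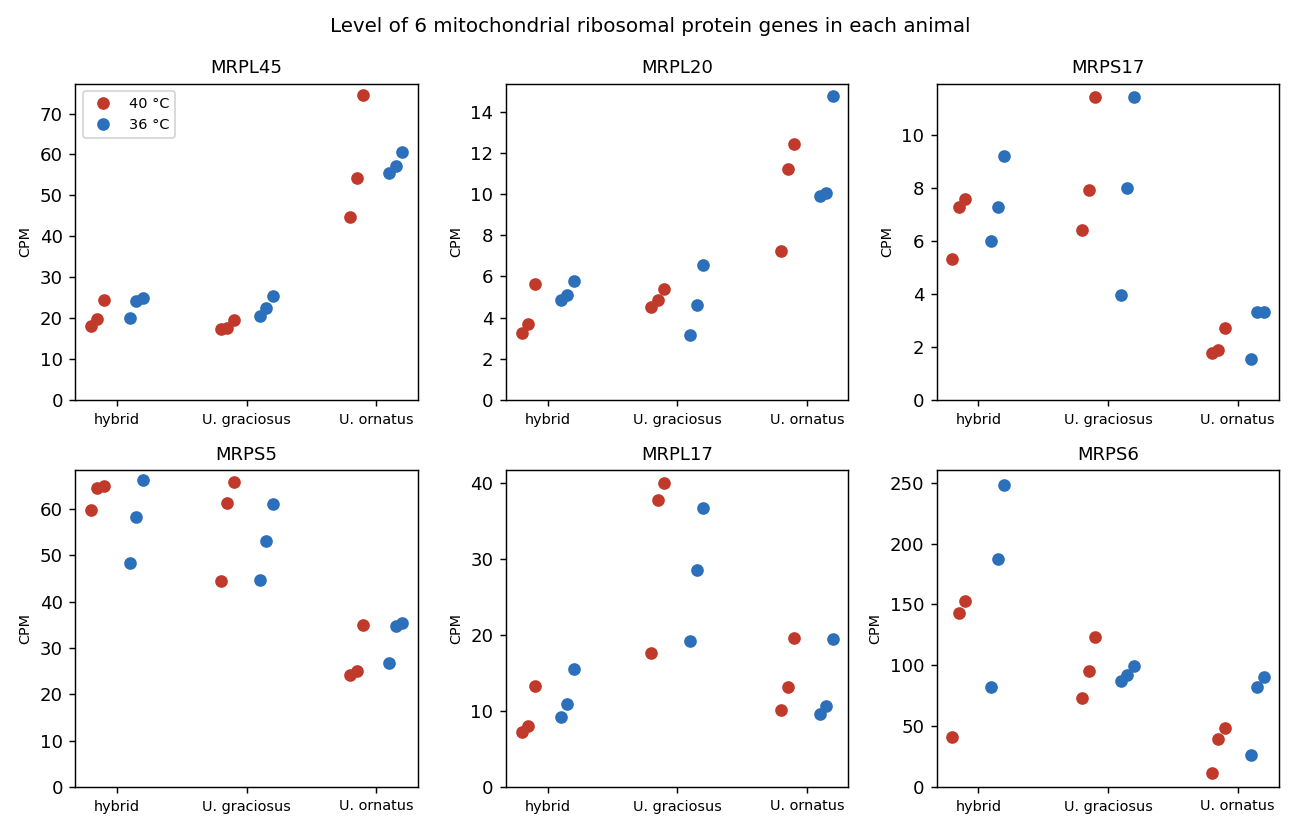
Levels in CPM are shown for 6 genes, 1 point for each animal, with 40 °C in red left of 36 °C in blue. MRPL45 and MRPL20 are high and MRPS17 and MRPS5 low in U. ornatus, MRPL17 is high in U. graciosus, and MRPS6 runs from 11.7 to 248 CPM.

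Against the midpoint of the parents (the mean of their log2 levels), 8 genes were higher in hybrids and 3 lower, 14.5% in all, against a background of 16.3% (9.78% higher, 6.55% lower). With library totals the split was 3 higher and 2 lower, 6.58% against 12.4% of all genes. The higher genes were MRPS5 (0.57 ± 0.12, adjusted p = 0.00656), MRPS26 (0.49 ± 0.11, 0.00968), MRPL2 (0.80 ± 0.19, 0.0120), MRPL16 (0.70 ± 0.17, 0.0125), MRPL37 (0.36 ± 0.10, 0.0243), MRPS6 (1.06 ± 0.34, 0.0412), MRPL51 (0.33 ± 0.11, 0.0428) and MRPL28 (0.46 ± 0.15, 0.0435). The lower ones were MRPL45 (-0.64 ± 0.12, 0.00235), MRPL17 (-0.93 ± 0.24, 0.0184) and MRPL20 (-0.63 ± 0.19, 0.0345). Leaving out 1 animal in turn, MRPL51 and MRPL28 kept their call in 5 of 18 fits each, MRPS6 in 7 and MRPL20 in 9. The count of 11 was 6 without A and 7 without I, R or P. It was 21 with limma voom (27.6%, against 29.5% of all genes). No gene of the 76 differed from both parents in the same direction past the threshold, against 1.02% of all genes (0 in edgeR). At an unadjusted p under 0.05, 4 were higher and 3 lower in hybrids than in U. graciosus (15.9% of all genes either way), and 30 higher and 9 lower than in U. ornatus (45.1%).

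MRPS6, a small subunit protein with a bacterial counterpart, varied the most of the 76 genes, with a within-group SD of 0.83 on the log2 scale. Heated hybrids I, K and X stood at 143, 153 and 41.2 CPM and hybrids A, B and D at 188, 82.3 and 248 CPM. Heated U. graciosus P, Q and T stood at 94.9, 123 and 73.1 CPM and J, R and S at 91.9, 87.4 and 99.7 CPM. Heated U. ornatus L, N and O stood at 48.1, 39.0 and 11.7 CPM and E, F and H at 26.0, 82.0 and 90.5 CPM. X was the lowest hybrid and O the lowest of all animals. MRPS6 was higher in hybrids than in U. ornatus by 1.58 ± 0.41 (adjusted p = 0.00779). X and O also had the lowest hepatocyte sums, 34236 and 39492 CPM, and the part of this in the level of MRPS6 was not tested. In human, the gene of the inositol transporter SLC5A3 lies within that of MRPS6. SLC5A3, looked up after the values of MRPS6 were seen, was higher in hybrids than in U. ornatus by 1.73 ± 0.30 (0.000547), and whether the genes share reads here was not tested. MRPL41 was next in spread, with an SD of 0.65 at 0.405 to 2.06 CPM. MRPL4, with a bacterial counterpart, and MRPL39 varied least, with SDs of 0.14 and 0.15.

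The genes of this ribosome followed each other weakly from animal to animal. After the group means were removed, the median correlation of a pair of the 76 genes was 0.13 over 18 animals, with 62.1% of pairs above 0. It was 0.14 within the large and 0.09 within the small subunit. Complex I subunits had a median of 0.41, cytosolic ribosomal proteins 0.64 and all genes tested 0.00. The pairs share libraries and scaling, and median levels differed, at 20.3 CPM for the 76 genes, 43.4 CPM for complex I and 392.1 CPM for the cytosolic ribosome. MRPS14, a small subunit protein, followed the median of the other genes most closely (r = 0.86), then MRPL47 (0.84) and MRPL51 (0.81). MRPS6 (-0.59) and MRPL23 (-0.44) ran against it. The median within-group SD was 0.31 for the 76 genes and 0.47 over all genes. It was 0.41 over the 11803 genes whose mean level lay in the range of the 76.

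**Figure D5:**
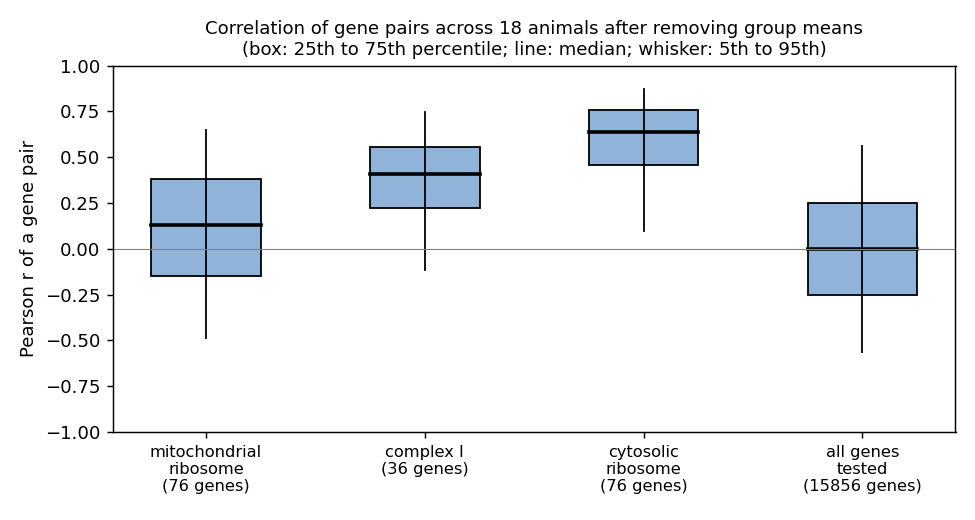
Boxes give the 25th to 75th percentile of Pearson's r over gene pairs across 18 animals after the group means were removed, with lines at the median and whiskers at the 5th and 95th percentiles. The median is 0.13 for the mitochondrial ribosome, 0.41 for complex I, 0.64 for the cytosolic ribosome and 0.00 for all genes tested.

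Other proteins of the same particle carry symbols outside the rule, and 4 of the 5 fixed for this were tested. DAP3, a GTP-binding protein of the small subunit, stood at 96.1, 124 and 103 CPM in heated hybrids (I, K, X) and 86.9, 83.6 and 89.6 CPM in A, B and D. In U. ornatus it stood at 54.04, 52.6 and 43.5 CPM in L, N and O and 55.8, 42.3 and 51.7 CPM in E, F and H. DAP3 was higher in hybrids by 0.95 ± 0.14 (adjusted p = 0.000117), and in U. graciosus against U. ornatus by 0.69 ± 0.14 (0.00143). GADD45GIP1, of the large subunit, was higher in hybrids by 0.88 ± 0.16 (0.000778). CHCHD1 and PTCD3, of the small subunit, were at 0.16 ± 0.20 (0.573) and 0.30 ± 0.12 (0.0624). None of these passed for mean heat (0 in edgeR, also at an unadjusted p under 0.05), where they lay between 0.02 and 0.30. Over all genes 0.996% were called for mean heat, and 17.9% were at an unadjusted p under 0.05. The background of calls against U. ornatus was 35.2% for hybrids and 32.2% for U. graciosus.

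Among 23 assembly genes, MTG1, a GTPase that guides the large subunit, was lower at 40 °C by -0.47 ± 0.11 (edgeR, adjusted p = 0.0493). MTG1 was the 1 gene of this list called for mean heat, 4.35%, against a background of 0.996% of all genes. It kept its call in 1 of 18 fits that left out 1 animal, with a highest adjusted p of 0.101. MTG1 stood at 19.0, 18.1 and 13.7 CPM in heated U. graciosus (P, Q, T), against 30.3, 34.7 and 32.1 CPM in J, R and S. In hybrids it stood at 23.6, 24.2 and 25.4 CPM in I, K and X, against 27.7, 31.8 and 20.1 CPM in A, B and D, with overlap. The levels of MTG1 in U. ornatus are not listed here. Against U. ornatus, 2 assembly genes were higher in hybrids and 2 lower, 17.4% of the list, below the 35.2% of all genes called. MALSU1, which keeps the large subunit from joining too early, was higher by 1.35 ± 0.16 (2.81e-05) and MRM3, a methyltransferase of the large ribosomal RNA, by 1.71 ± 0.21 (3.58e-05). RPUSD3, a pseudouridine synthase relative, was lower by -1.37 ± 0.18 (6.79e-05) and RPUSD4 by -0.40 ± 0.15 (0.0449). Of 13 translation factors 3 were higher and 1 lower in hybrids, 30.8% of the list and thus below that background. MRRF, which recycles ribosomes, was at 1.08 ± 0.21 (0.00131), TUFM, the elongation factor, at 0.50 ± 0.17 (0.0358), LRPPRC, which holds mitochondrial messages, at 0.63 ± 0.23 (0.0462) and MTRF1L, a release factor, at -0.68 ± 0.21 (0.0188). Of 12 regulators of mitochondrial biogenesis 4 were higher in hybrids, 33.3% of the list and near that background. They were the coactivators PPARGC1B (1.02 ± 0.26, 0.00726) and PPRC1 (1.05 ± 0.37, 0.0384) and the transcription factors ESRRA (0.73 ± 0.16, 0.00292) and NRF1 (0.56 ± 0.19, 0.0325). Lower regulators numbered 0 in edgeR, and 1 at an unadjusted p under 0.05. Leaving out 1 animal in turn, LRPPRC kept its call in 2 of 18 fits, RPUSD4 in 5, PPRC1 in 10 and TUFM and NRF1 in 11 each.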

How the data were processed

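Liver RNA of 18 animals was sequenced as directional libraries, per the labels' protocols. The deposited values are raw counts made by the authors, who per the submitters' processing notes used Trim Galore 0.6.4, STAR and Subread, with DESeq2 for tests; the genome was that of Sceloporus undulatus, per the series' design text. The build, annotation, strand option and handling of multiply matching reads were not given in the labels, so overlapping genes or copies may share reads. Low counts were mostly even (71.8% to 76.4% of counts from 1 to 20), so halved counts were tried.

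Counts were filtered by filterByExpr, scaled by TMM and fitted by edgeR 4.0.16 quasi-likelihood in R 4.3.3 (robust, 1 mean for each of 6 groups, 18 libraries), with Benjamini-Hochberg adjustment over 15856 genes. Log2 CPM used a prior count of 2. The pipeline was tested on simulated data with changes of at least 2-fold, and smaller changes were not simulated. The labels do not say outright that each letter is a separate animal. The p-values set a difference against the spread between these samples. All 6 groups share 1 estimate of that spread for each gene, also in the heat test of a single lineage.

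The members and lists were chosen with earlier results of these data known. Named genes were up to 25 called by p in a comparison, or the 3 smallest p for heat where none was called, any called against both parents in 1 direction, 8 fixed genes, the 2 of highest and 2 of lowest spread, up to 4 called by p in each other list, and the other-symbol list; MRPS15, MRPL23, MRPS14 and MRPL47 were added after their values were seen. Counts of the 76 genes are read against all genes, and no test was run on the list as a whole. Alternatives were DESeq2 1.42.0, limma voom 3.58.1, RLE factors, library totals, other filters (none, or 5 CPM in 3 libraries), halved counts, fewer groups or animals, and 1 temperature. No genome or annotation was used here, so no positions or sequences are given.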

Additional observations from a re-analysis of the deposited data

Results flagged for a closer look

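MRPL55 was the 1 gene of the 76 whose heated animals all lay above in one lineage and all below in another. It stood at 15.96, 13.2 and 21.4 CPM in heated hybrids (I, K, X), against 9.56, 11.1 and 10.1 CPM in A, B and D, and at 11.8, 12.1 and 10.8 CPM in heated U. graciosus (P, Q, T), against 13.0, 12.3 and 15.6 CPM in J, R and S. The heat differences differed by 0.95 ± 0.32 on the log2 scale (hybrids minus U. graciosus), which did not pass over all genes in edgeR (adjusted p = 0.99996). Over all genes, 5.11% lay higher without overlap in heated hybrids and 7.45% lower in heated U. graciosus. How many of all genes went opposite ways in different lineages was not counted.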

How the results depend on the processing

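No paired analysis was possible because each animal was held at 1 temperature and its letter belongs to 1 group. With library totals in place of TMM, the median over all genes moved to 0.24 for mean heat, 0.24, 0.05 and 0.39 for heat in hybrids, U. graciosus and U. ornatus. The median of the 76 genes was then 0.31 for mean heat, 0.42 in hybrids and 0.30 in U. ornatus, 0.22 for heat in hybrids minus U. graciosus, 0.0047 for hybrids minus U. ornatus and -0.15 for U. graciosus minus U. ornatus, and 0.10 and -0.10 for hybrids and U. graciosus against U. ornatus. MRPL3 (0.14), MRPS34 (0.0041) and MRPL39 (0.077) changed sign for mean heat. Library totals gave 1 call for heat in U. ornatus (1.32%, against 1.84% of all genes) and 5 against the midpoint (6.58%, against 12.4%). They gave 18 for hybrids (23.7%, against 30.1%) and 17 for U. graciosus (22.4%, against 28.0%) against U. ornatus. DESeq2 gave 1 for mean heat (1.32%, against 5.45%) and 1 for heat in U. ornatus (1.32%, against 5.34%). Voom gave 2 for mean heat (2.63%, against 3.37%), 3 for hybrids against U. graciosus (3.95%, against 6.71%) and 21 against the midpoint (27.6%, against 29.5%). At 36 °C alone the calls were 0 for hybrids against U. graciosus, 14 for hybrids and 12 for U. graciosus against U. ornatus, and at 40 °C alone 0, 20 and 15. As shares of the 76 genes the counts against U. ornatus were 18.4% and 15.79% at 36 °C (18.4% and 14.8% of all genes), and 26.3% and 19.7% at 40 °C (18.4% and 15.9%). Without X, T and O together the median was 0.24 for heat in U. graciosus, 0.30 for heat in U. graciosus minus U. ornatus and 0.19 for U. graciosus against U. ornatus. Leaving out 1 library gave medians of 0.059 (without O) to 0.14 (without T) for mean heat, -0.14 (without O) to 0.038 (without E) for heat in U. ornatus, -0.025 (without T) to 0.14 (without B) for heat in hybrids minus U. graciosus, 0.014 (without B) to 0.11 (without D) for hybrids against U. graciosus, -0.0024 (without N) to 0.16 (without O) for U. graciosus against U. ornatus, 0.047 to 0.25 for heat in U. graciosus, 0.10 to 0.32 for heat in hybrids minus U. ornatus and 0.044 to 0.28 for U. graciosus minus U. ornatus, and 1 to 2 calls for hybrids against U. graciosus (2 without J) and 6 to 14 against the midpoint. The causes were not tested. Of the values of named genes, 113 under other settings and 142 with 1 library left out lost their call, and 4 under other settings gained one. Sign and state, called or not called, were unchanged in 1071 under other settings and 2000 with 1 library left out. These include values that were not called to begin with. Another 3, under other settings, changed sign. Counts limit MRPL41 most, with 8 counts in its lowest library.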
